A study of Homo sapiens with 6 samples.

Results

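The amino acid response is the set of genes that cells switch on through the transcription factor ATF4 when amino acids run short or when translation factor eIF2 is phosphorylated. It was followed here in the established line IGROV-1, grown from a human ovarian carcinoma, together with the cytosolic aminoacyl-tRNA synthetases, the enzymes that load each tRNA with its amino acid. The set holds 40 genes chosen by name: 20 cytosolic synthetases and 20 other genes of the ATF4 pathway. They have 52 of the 48801 probes on the array. Of these 52 probes, 46 were above background on at least 3 of the 6 arrays, and they covered 37 of the 40 genes. The probes left out belong to ALDH1L2, FARSB, IARS, PSAT1, VARS and VLDLR, and each was above background on no array. ALDH1L2, a mitochondrial folate enzyme gene, was above background on no array, and no probe is named for the synthetase genes CARS and DARS in the annotation used.

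IGROV-1 cells had been cultured for 24 h in equal volumes of medium and ascitic fluid. The ascites came from mice carrying IGROV-1 tumours in the peritoneum that had been injected there with saline or with the CpG oligodeoxynucleotide ODN1826 at 20 µg per mouse, a synthetic DNA recognised by Toll-like receptor 9 of the mouse. Each group had 3 arrays, called saline ascites and CpG ascites replicates 1 to 3. Dosing was given once or on 3 consecutive days, and the labels do not tie an array to a schedule, a mouse or a culture. P-values then rest on the spread between these samples alone, and that spread may be technical.

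When amino acids are scarce, uncharged tRNA activates the kinase GCN2. The kinase phosphorylates eIF2, which lowers translation in general but raises translation of the ATF4 mRNA. ATF4 then binds, often as a dimer with a C/EBP protein, to a composite DNA element upstream of genes for amino acid synthesis, amino acid uptake and tRNA charging. Because this switch is largely translational, the mRNA of ATF4 can stay level while its targets change. Tumour cells use the same programme for serine, glycine and asparagine supply.

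The composite element was looked for as the letters TGATGNAA, on both strands, in RefSeq promoter windows of GRCh38.p14 that run from 250 bases before to 50 bases after each listed start. On the other strand it reads TTNCATCA. RefSeq windows were listed for 31 of the 40 genes, and not for NUPR1, PSPH, SHMT2, ALDH1L2, SLC7A11, DARS, LARS, VARS and YARS. The letters occurred in 7 of the 16 synthetase genes with a window, which is 43.8%, against 4.46% of the 27305 genes with any window. The 7 were AARS, CARS, GARS, IARS, MARS, NARS and TARS. All 7 belong to the synthetases often counted as ATF4-induced, where the letters occurred in 7 of 10. That list itself rests on earlier knowledge of ATF4 targets, so this is no separate support. Of the 9 other synthetases only 6 had a window, fewer than 80%, and 0 of the 6 held the letters. These shares were therefore not compared. Among the other pathway genes they occurred in 5 of 15, namely ASNS, CEBPG, CHAC1, SLC3A2 and SLC7A1. Only 15 of these 20 genes had a window, fewer than 80%, so their share was not compared with that of all genes. A match describes these letters only and is not a measured binding site. The letters occurred in 12 of the 31 members with a window, so most of these members do not share them. The stretches around 4 matches are shown on the strand of the gene, with the matched letters in capitals. They belong to ASNS, the asparagine synthetase gene, at chr7:97872443-97872502, to CHAC1, which degrades glutathione, at chr15:40953236-40953295, to the alanyl-tRNA synthetase gene AARS at chr16:70289660-70289719, and to CEBPG, a partner of ATF4, at chr19:33374045-33374104. The match began 68, 209, 187 and 42 bases before the start of ASNS, CHAC1, AARS and CEBPG. ASNS and AARS lie on the minus strand, CHAC1 and CEBPG on the plus strand.
ASNS: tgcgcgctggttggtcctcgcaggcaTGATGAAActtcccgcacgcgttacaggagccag
CHAC1: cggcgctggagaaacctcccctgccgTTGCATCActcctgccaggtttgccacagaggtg
AARS: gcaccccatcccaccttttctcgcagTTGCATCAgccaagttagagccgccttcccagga
CEBPG: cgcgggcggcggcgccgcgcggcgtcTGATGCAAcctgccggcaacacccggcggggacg

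The arrays had mean probe intensities from 587 to 788, and 13303 to 13835 probes per array were above background (detection p-value under 0.01). CpG ascites replicate 1 stood apart, with a correlation to the other arrays of 0.948 to 0.958 across probes, while the others correlated with each other at 0.978 to 0.992. Values without it are therefore also given for genes and lists named below whose change turned sign or moved by over 1.5 times. Of 8 epithelial markers 7 were measured, among them EPCAM and the lineage factor PAX8, while the KRT8 probe was above background on no array. CDH1 counts as measured through the 3 CpG arrays alone and was above background on no saline array. Both KRT18 probes were above background on all 3 saline arrays but only 2 CpG arrays. Of the leukocyte and fibroblast markers on the array, 5 and 6 genes, none was measured, and of 4 mesothelial markers only UPK3B was.

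No member differed between the groups in the limma test with Benjamini-Hochberg adjustment over all 13713 probes kept. At the brightest probe of each gene their adjusted p ran from 0.348 to 0.990, and 0% of all probes passed. Over all member probes the smallest was 0.296, at a second ASNS probe. Values below are normalized log2 intensities, and a change is CpG ascites minus saline ascites on the log2 scale with its standard error (SE). Where a gene has several probes, the brightest stands for it unless stated. The changes of the 37 genes lay between -0.34 and 0.38, at most 1.26-fold lower and 1.298-fold higher, with 17 above 0 and 20 below 0. In 30 of the 37 the 95% interval of the change lay within 1.5-fold in either direction. The arrays measure RNA of the whole culture, so a smaller share of expressing cells and less RNA per cell cannot be told apart.

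At an unadjusted p under 0.05, 2 of the 37 genes had lower values in CpG ascites (5.41%) and 0 had higher values. Over all probes kept, 5.97% were lower and 6.86% higher by this rule. At 1 probe per gene the members' share is near or under that background, which itself counts every probe. Of all 46 member probes kept, 4 were lower and 1 was higher by the same rule. The groups did not overlap in 7 genes that were lower in CpG ascites (18.9%) and in 3 that were higher (8.11%), 27.0% in all. Among all probes kept, 20.7% did not overlap, 9.82% lower and 10.9% higher. Of all 46 member probes, 9 were lower and 3 higher without overlap. Without CpG ascites replicate 1, 3 of the 37 were lower at an unadjusted p under 0.05 (MTHFD2, CTH and NARS), 0 were higher and 0 passed after adjustment. Without this array 8.06% of all probes were lower and 6.82% higher by the same rule, and 0.153% passed after adjustment.

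**Figure D1:**
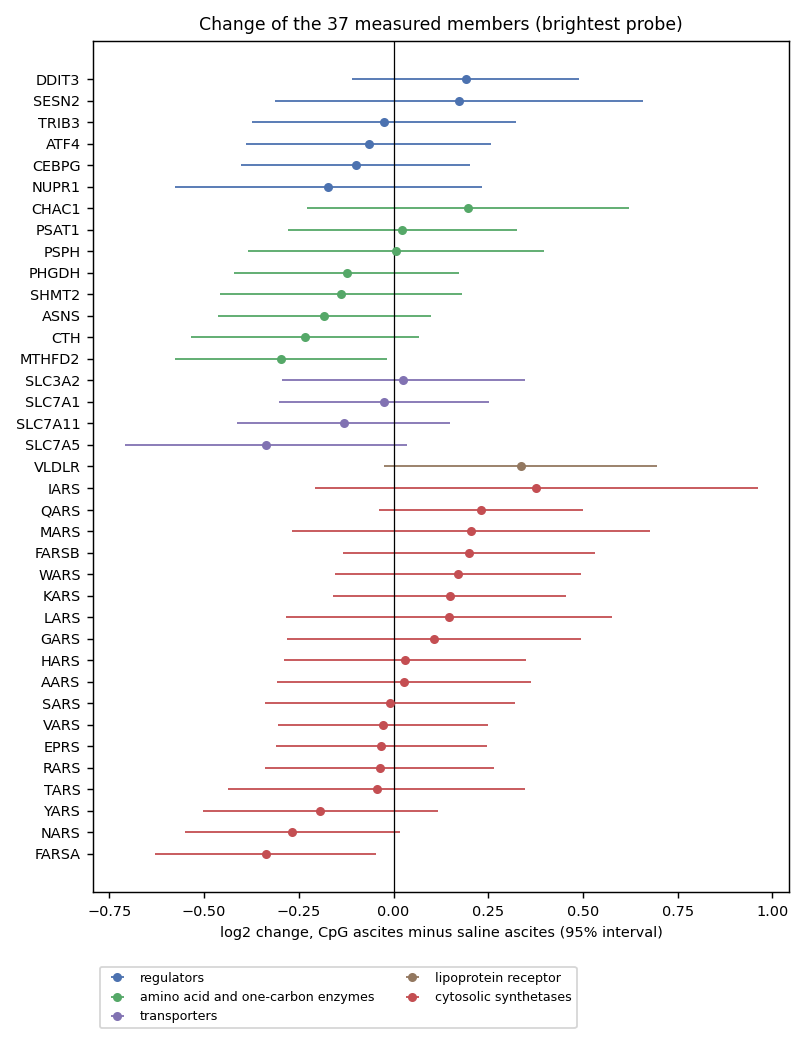
Log2 change of the 37 measured genes, CpG ascites minus saline ascites, for the brightest probe of each gene. Points are fitted changes over 3 arrays per group, lines are 95% intervals and colours are roles; the points run from -0.34 for FARSA to 0.38 for IARS, and the interval excludes 0 only for MTHFD2 and FARSA, before any adjustment.

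The regulators come first. ATF4, the transcription factor of the response, had log2 intensities of 15.35, 15.17 and 15.17 in saline ascites and 15.30, 15.21 and 14.97 in CpG ascites. The groups overlapped, and the change was -0.066 ± 0.138 (SE; adjusted p 0.854), or -0.14 ± 0.14 without CpG ascites replicate 1. Its second probe had -0.021 ± 0.143, or 0.086 ± 0.128 without that array. The dimmest of its 3 probes was at 7.60, 7.26 and 7.53 in saline ascites and 6.11, 7.41 and 7.58 in CpG ascites. Replicate 1 was low there and the other CpG arrays lay among the saline arrays. The change at that probe was -0.43 ± 0.36, or 0.033 ± 0.148 without replicate 1.

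DDIT3 encodes CHOP, a stress factor that ATF4 induces. Its values were 12.60, 12.63 and 12.62 in saline ascites and 12.98, 12.76 and 12.68 in CpG ascites. All 3 CpG arrays lay above the saline arrays, but by a change of only 0.19 ± 0.13 (adjusted p 0.551), or 0.10 ± 0.12 without replicate 1. TRIB3, a pseudokinase that feeds back on ATF4, was at 12.13, 12.18 and 12.23 in saline ascites and 11.90, 12.35 and 12.22 in CpG ascites. Its groups overlapped, with a change of -0.025 ± 0.149, or 0.10 ± 0.12 without replicate 1. NUPR1, a small stress-induced chromatin protein, was at 9.84, 9.47 and 9.40 against 9.55, 9.16 and 9.48, a change of -0.17 ± 0.17 with overlap. CEBPG and the leucine sensor gene SESN2 had changes of -0.10 ± 0.13 and 0.17 ± 0.21, and without replicate 1 CEBPG had -0.19 ± 0.12. Over the 6 regulators the median change was -0.045, with 2 genes above 0 and 4 below, or -0.016 without replicate 1.

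Of the 8 measured enzyme genes of amino acid and one-carbon metabolism, 3 were lower in CpG ascites without overlap: ASNS, MTHFD2 and CTH. Over all probes kept, 9.82% were lower without overlap, and 0 of the 8 enzymes passed after adjustment. ASNS was at 14.01, 14.11 and 14.02 in saline ascites and 13.98, 13.82 and 13.80 in CpG ascites. All CpG arrays lay below the saline arrays, with a change of -0.18 ± 0.12 (adjusted p 0.544). A second ASNS probe was at 10.86, 11.01 and 10.72 in saline ascites and 10.41, 10.46 and 9.70 in CpG ascites, also without overlap. Its change was -0.68 ± 0.22 (unadjusted p 0.0161, adjusted p 0.296), or -0.79 ± 0.22 without CpG ascites replicate 1 (adjusted p 0.176). The changes at these probes of the same gene thus differ by 0.49 on the log2 scale.

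MTHFD2, the mitochondrial folate enzyme that supplies one-carbon units, was at 12.62, 12.80 and 12.75 in saline ascites and 12.49, 12.36 and 12.43 in CpG ascites. The groups did not overlap and the change was -0.30 ± 0.12 (unadjusted p 0.0396, adjusted p 0.369). CTH, which makes cysteine from cystathionine, was at 11.62, 11.59 and 11.59 against 11.55, 11.30 and 11.25, also without overlap (change -0.23 ± 0.13). Its second probe had -0.34 ± 0.13 without overlap, but another had 0.10 ± 0.12 with overlap. SHMT2, the mitochondrial serine hydroxymethyltransferase, was at 13.16, 13.31 and 13.41 against 12.996, 13.21 and 13.27, with overlap (change -0.14 ± 0.14, or -0.058 ± 0.132 without CpG ascites replicate 1).

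CHAC1 was at 6.95, 7.62 and 7.20 in saline ascites and 7.49, 7.38 and 7.49 in CpG ascites. The CpG arrays lay inside the saline range, with a change of 0.20 ± 0.18. The serine synthesis genes PHGDH, PSAT1 and PSPH had changes of -0.12 ± 0.13, 0.023 ± 0.129 and 0.0066 ± 0.1675, with overlap in all 3. Without replicate 1 PSAT1 had -0.060 ± 0.122 and PSPH 0.067 ± 0.174. The median over the 8 measured enzymes was -0.13, with 3 above 0 and 5 below, or -0.079 without CpG ascites replicate 1.

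Of the transporters, SLC7A5, the LAT1 carrier of large neutral amino acids, was at 13.50, 13.45 and 13.44 in saline ascites and 12.86, 13.10 and 13.41 in CpG ascites. All CpG arrays lay below the saline arrays, replicate 3 by little, and the change was -0.34 ± 0.16 (adjusted p 0.424). It was -0.21 ± 0.14 without replicate 1 and -0.48 ± 0.13 without replicate 3 (adjusted p 0.525 and 0.298). SLC7A11, the cystine carrier xCT, was at 7.73, 7.76 and 7.93 against 7.70, 7.63 and 7.70, without overlap but with a change of only -0.13 ± 0.12. SLC7A1, the arginine and lysine carrier, had -0.024 ± 0.119, or -0.076 ± 0.121 without replicate 1.

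SLC3A2, the heavy chain that both SLC7A5 and SLC7A11 need at the membrane, was at 12.08, 12.19 and 12.09 in saline ascites and 12.21, 11.94 and 12.29 in CpG ascites. The groups overlapped, with a change of 0.026 ± 0.137, or -0.0086 ± 0.1448 without CpG ascites replicate 1. A second SLC3A2 probe was at 10.10, 10.11 and 9.71 in saline ascites and 4.89, 9.85 and 9.87 in CpG ascites. There CpG ascites replicate 1 alone lay far below the other 5 arrays. The change of -1.77 ± 1.22 at that probe became -0.11 ± 0.16 without it. VLDLR, a lipoprotein receptor that ATF4 induces, was at 11.38, 11.45 and 11.28 against 11.95, 11.47 and 11.70. All CpG arrays lay above, replicate 2 by little, with a change of 0.34 ± 0.15 (adjusted p 0.418), or 0.21 ± 0.13 without replicate 1.

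**Figure D2:**
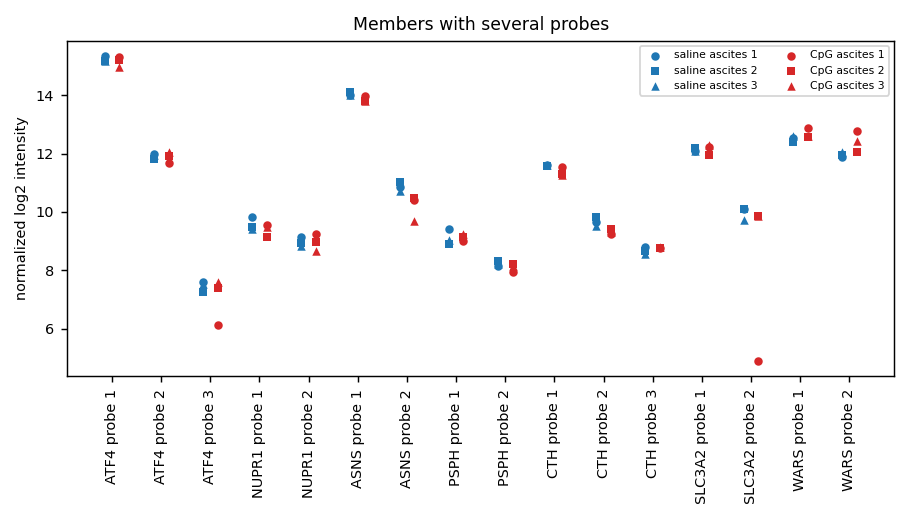
Normalized log2 intensity on each array at every measured probe of the 7 genes with several probes, ordered from the brightest probe of a gene. Blue points are saline ascites and red points CpG ascites; CpG ascites replicate 1 lies at 4.89 on the second SLC3A2 probe, and the groups are apart at both ASNS probes.

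Among the 18 measured cytosolic synthetases, 10 had changes above 0 and 8 below, with a median of 0.029. FARSA, the catalytic subunit of phenylalanyl-tRNA synthetase, was at 9.29, 9.21 and 9.31 in saline ascites and 8.83, 8.89 and 9.08 in CpG ascites. The groups did not overlap, and the change was -0.34 ± 0.13 (unadjusted p 0.029, adjusted p 0.348). Its p was the smallest among the brightest probes of the members, though the second ASNS probe had a smaller one. FARSB, the other subunit of the same enzyme, had a change in the other direction, at 15.07, 14.87 and 14.88 against 15.08, 14.99 and 15.34. Its groups overlapped, with a change of 0.20 ± 0.14. A second FARSB probe was above background on no array, so this direction rests on 1 probe. The difference between the subunits was not tested.

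NARS, which charges the tRNA of asparagine, the product of ASNS, was at 14.24, 14.28 and 14.18 in saline ascites and 14.09, 13.88 and 13.93 in CpG ascites. The groups did not overlap and the change was -0.27 ± 0.12 (adjusted p 0.415), or -0.33 ± 0.12 without CpG ascites replicate 1 (adjusted p 0.261). QARS, the glutaminyl-tRNA synthetase, was at 12.74, 12.64 and 12.71 against 12.90, 12.995 and 12.89. All CpG arrays lay above the saline arrays, with a change of 0.23 ± 0.12 (adjusted p 0.446). YARS, which charges tyrosine tRNA, was at 13.86, 13.88 and 13.76 against 13.45, 13.77 and 13.70, with overlap by a narrow margin (change -0.19 ± 0.13, or -0.099 ± 0.122 without replicate 1).

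IARS, the isoleucyl-tRNA synthetase, had the largest change above 0, and it rests on 1 array. Its values were 12.04, 12.28 and 11.97 in saline ascites and 13.06, 12.12 and 12.24 in CpG ascites, where only replicate 1 lay above the saline range. The change was 0.38 ± 0.25, or 0.085 ± 0.142 without replicate 1. WARS, which charges tryptophan tRNA and is also known as an interferon-induced gene, was at 12.52, 12.40 and 12.62 against 12.88, 12.56 and 12.61, a change of 0.17 ± 0.14 with overlap, or 0.072 ± 0.128 without replicate 1. A second WARS probe was at 11.89, 11.94 and 12.05 in saline ascites and 12.78, 12.05 and 12.42 in CpG ascites. Replicate 1 was again the highest, and the change of 0.46 ± 0.19 (unadjusted p 0.047, adjusted p 0.383) became 0.28 ± 0.15 without it.

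The other 11 synthetase genes overlapped between the groups, with changes from -0.044 for TARS to 0.20 for MARS, which were -0.19 and 0.10 without CpG ascites replicate 1. MARS, the methionyl-tRNA synthetase, was at 11.14, 11.15 and 11.14 in saline ascites and 11.55, 10.89 and 11.61 in CpG ascites. The saline arrays nearly coincided while CpG ascites replicate 2 lay below them and the other CpG arrays above. The changes of AARS, EPRS, SARS, VARS, RARS and HARS were all within 0.04 of 0, with standard errors of 0.12 to 0.14. Without replicate 1 they ran from -0.097 for SARS to 0.11 for AARS.

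**Figure D3:**
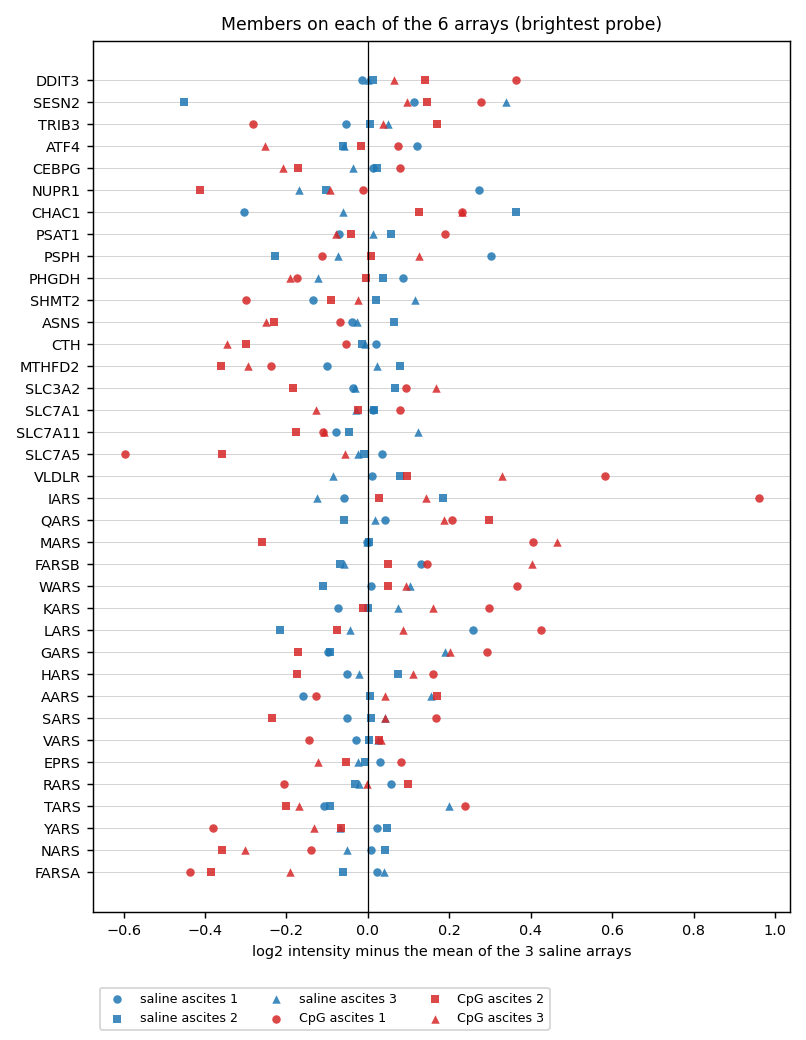
Log2 intensity of each of the 37 genes on each array, as the difference from the mean of the 3 saline arrays (brightest probe). Blue marks are saline ascites and red marks CpG ascites; the red marks lie on both sides of 0 for most synthetases, and IARS on CpG ascites replicate 1 is the mark farthest to the right.

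The synthetases were then set beside the other pathway genes. The median change was 0.029 over the 18 synthetases and -0.066 over the 19 other members, against -0.00037 over all probes kept, or 0.012 without CpG ascites replicate 1. By array, the median difference of the synthetases from the saline mean was 0.16, -0.060 and 0.065 in CpG ascites replicates 1, 2 and 3, and between -0.0032 and 0.0073 on the saline arrays. The CpG arrays thus lay on both sides of the saline arrays. For the other members the CpG arrays were at -0.013, -0.041 and -0.079, and the saline arrays between -0.026 and 0.015. The difference of the medians was 0.095. Computed per array, that difference had an SD of 0.10 in the group where it varied more, the CpG arrays with replicate 1 among them. This SD describes single arrays and is not an error of the difference between groups. With 1 array left out the difference of the medians ran from 0.035 to 0.18.

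Within the synthetases, the 7 measured members of the multi-synthetase complex, a cytoplasmic assembly of several of these enzymes, had a median change of 0.15, with 5 above 0. The 11 outside the complex had -0.0092, or -0.033 without CpG ascites replicate 1. In the complex the CpG arrays had medians of 0.30, -0.012 and 0.14, so replicate 2 lay among the saline arrays, and without replicate 1 the median change was 0.074. The class I enzymes had a median of 0.15 and the class II enzymes 0.027, over 9 genes each, or 0.048 and -0.033 without replicate 1. The 10 measured synthetases often counted as ATF4-induced had 0.0091 and the other 8 had 0.088, or -0.037 and 0.039 without replicate 1. The 11 measured genes with TGATGNAA in a promoter window had a median change of 0.026 and the 19 without it -0.0092, or -0.0086 and -0.033 without replicate 1.

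Neighbouring parts of the pathway were read in the same way. The first list held 8 genes, for the eIF2 alpha kinases, an activator, eIF2 alpha itself and the phosphatase that reverses the kinases. Of these, 7 had changes below 0, with a median of -0.15, or -0.094 without CpG ascites replicate 1. By array this median was -0.16, -0.11 and -0.16 in CpG ascites and 0.066, 0.051 and -0.099 in saline ascites, so saline ascites replicate 3 lay close to the CpG arrays. PPP1R15B, the constitutive phosphatase subunit, was at 8.16, 7.99 and 7.69 against 7.57, 7.19 and 7.02, without overlap. Its change was -0.69 ± 0.19 and that of its second probe -0.87 ± 0.26 (adjusted p 0.264 and 0.279). Both probes were dim, with means of 7.60 and 7.40 over all arrays, though above background on all 6. EIF2AK2, the RNA-activated kinase PKR and itself interferon-induced, had -0.40 ± 0.15 (adjusted p 0.342), and EIF2S1, which encodes eIF2 alpha, -0.22 ± 0.17, or -0.37 ± 0.15 without replicate 1. EIF2AK4, the GCN2 kinase gene, had -0.11 ± 0.12. GCN1, the activator, counts below 0 at -0.00047 ± 0.15524, and had 0.083 ± 0.154 without replicate 1. The gene above 0 was the kinase gene EIF2AK3 at 0.34 ± 0.37, or -0.094 ± 0.211 without replicate 1. AIMP1, a scaffold protein of the multi-synthetase complex, was at 7.21, 6.80 and 6.97 in saline ascites and 6.32, 6.49 and 5.90 in CpG ascites. It was above background on every saline array but on none of the CpG arrays, so the filter kept it through the saline arrays alone. A probe kept in this way is bound to look lower in CpG ascites, so its test is not read. Its saline mean was 1.35-fold above the detection floor set for the CpG arrays. This fold bound rests on the same selection and has no error, so it is not read as a decrease.

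Of 19 further ATF4 targets 16 were measured, 8 above and 8 below 0, with a median of 0.0040, or -0.058 without CpG ascites replicate 1. SLC38A2, a carrier of small neutral amino acids, was at 12.21, 12.11 and 12.19 in saline ascites and 11.85, 11.91 and 11.61 in CpG ascites, without overlap, and had -0.38 ± 0.13 (adjusted p 0.314). The repressor gene JDP2 had -0.55 ± 0.20 (adjusted p 0.329), at a dim probe with a mean of 7.06 over all arrays. PCK2, a mitochondrial enzyme of phosphoenolpyruvate synthesis, had 0.25 ± 0.14. Other PCK2 probes had -0.54 ± 0.34 and -0.042 ± 0.191. Without replicate 1 the 3 PCK2 probes had 0.13 ± 0.12, -0.14 ± 0.19 and -0.25 ± 0.13. The mitochondrial synthetases, with 15 of 17 measured, had a median of -0.053 with 7 above and 8 below 0, or 0.0049 without replicate 1. YARS2 had -0.28 ± 0.12, TARS2 0.51 ± 0.21 and MARS2 -0.21 ± 0.13, and TARS2 was not above background on every saline array. The 10 targets of ATF6 and XBP1, the other arms of the endoplasmic reticulum stress response, had a median of 0.029 with 6 above and 4 below 0, or -0.052 without replicate 1. The 3 genes with the smallest p were all among the 4 below 0. They were DNAJB9 at -0.30 ± 0.15, SEL1L at -0.34 ± 0.18 and XBP1 itself at -0.21 ± 0.12. SEL1L was above background on only 2 of the 3 CpG arrays. No gene of these lists passed the test over all probes.

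**Figure D4:**
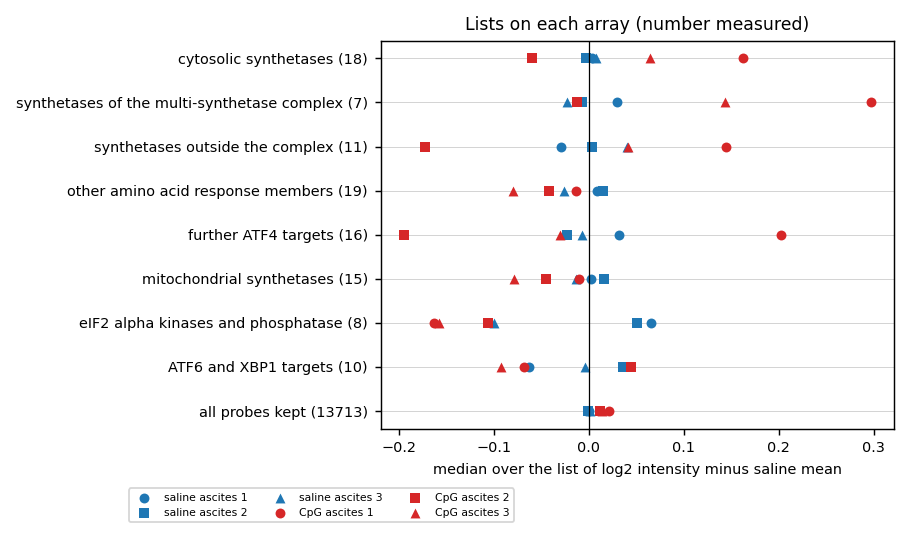
Median over the genes of each list of the log2 intensity minus the saline mean, on each array, with the number of genes measured in parentheses. Blue marks are saline ascites and red marks CpG ascites; for the synthetases CpG ascites replicate 2 is at -0.060 and replicate 1 at 0.16, on either side of the saline arrays.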

How the data were processed

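Total RNA of 6 samples was hybridised to Illumina bead arrays with 1 colour, and samples were grouped by their titles in the labels. Per the submitters' processing notes, BeadStudio was used. The deposited intensity per probe is not normalized, and its detection p-value per array stands beside it, per the file headers. The authors' processed intensity, with nearly equal quantiles on all arrays by a method not given in the sources used here, served as an alternative. Background was corrected and arrays were quantile normalized with neqc of limma 3.58.1 in R 4.3.3 (offset 16, log2). Probes were kept where the detection p-value was below 0.01 on 3 or more of the 6 arrays, and were named from the platform annotation, which gave 1 symbol to 28097 probes, several to 13 and none to 20691. Groups were compared with lmFit and eBayes, two-sided, without covariate, with Benjamini-Hochberg adjustment at 0.05. The fit was tested on simulated data. A fold bound sets the detected group's mean against a floor, which on each array is the dimmest detected signal or, if higher, that of the probe.

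Members, lists and settings were chosen with earlier results of these data known. Array values were given by rule for ATF4, DDIT3, ASNS, TRIB3, CHAC1, SLC7A11, the 6 other pathway genes and 7 synthetases with the smallest p, and genes whose probes differed by over 0.5 in their change. Up to 3 genes with the smallest p came from each further list. MARS, EIF2AK3, EIF2AK4, EIF2S1, GCN1, the array values of PPP1R15B, AIMP1 and SLC38A2, and further probes of named genes were added after values were seen.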

Additional observations from a re-analysis of the deposited data

How the results depend on the processing

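No member passed the test in any of the 15 other settings of the fit, where the smallest adjusted p was 0.206 over the brightest probes and 0.176 over all member probes, at the second ASNS probe without CpG ascites replicate 1. Of the 37 genes, 23 kept the sign of their change in all of them and 14 did not. Among the 14, SESN2 had the largest change, 0.17, and ATF4 the next, -0.066. The cause was not tested. Over all probes, 0 passed, but 1 did with no background correction, 1 with the authors' values, 14 with a mean-variance trend, and 0 to 21 with 1 array left out, 21 being without CpG ascites replicate 1. The median of the other members, -0.066, was 0.039 with median scaling and -0.10 when a gene's probes were averaged. That of the synthetases, 0.029, was 0.12 with median scaling and 0.017 with array weights. Median scaling also moved the median of all probes to 0.080, and 74.2% of probes with an unadjusted p under 0.05 were then higher, against 53.5%. Counts of probes at this p were 2192 higher and 1786 lower with no filter. With median scaling ATF4 had 0.039, TRIB3 0.056, SLC7A1 0.061, EPRS 0.015, RARS 0.047, SARS 0.079, TARS 0.036 and VARS 0.064. With array weights TRIB3 had 0.063, PSAT1 -0.026, SLC3A2 -0.038, HARS -0.043, RARS 0.028 and VARS 0.0040.

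With 1 array left out, changes ran from -0.14 to 0.029 for ATF4, from -0.12 to 0.10 for TRIB3, from -0.060 to 0.075 for PSAT1, from -0.11 to 0.16 for PSPH, from -0.045 to 0.13 for SLC3A2, from -0.076 to 0.027 for SLC7A1, from -0.053 to 0.34 for SESN2, from -0.053 to 0.11 for AARS, from -0.089 to 0.014 for EPRS, from -0.033 to 0.13 for HARS, from -0.10 to 0.048 for RARS, from -0.10 to 0.10 for SARS, from -0.19 to 0.056 for TARS and from -0.058 to 0.030 for VARS. The median ran from -0.0014 to 0.12 for the synthetases and from -0.096 to -0.036 for the other members.

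The replicate block left 0 probes past the threshold and the medians at 0.029 and -0.066. Same-numbered samples deviated together with correlations of -0.10, 0.014 and -0.021, so the numbers were not taken as pairs. The 3 arrays per group limit the precision: the half-width of the 95% interval was 0.27 to 0.58 on the log2 scale.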
